A study of Mus musculus with 3 samples.

Results

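Of the 4116 EBF1 ChIP-seq regions of the series, 518 (12.6%) were moderate sites shared by the EBF1wt and EBF1E271A libraries and far from protein-coding genes, and overlapping rows among them formed 266 of the 2121 loci. They were chosen by measured values: the scaled count was above 100 in both libraries, it was not 200 or more in both, and the centre of the 300 bp region lay more than 10 kb outside every protein-coding gene body of GRCm38. EBF1 occupancy was measured by chromatin immunoprecipitation and sequencing in mouse pro-B cells of strain C57BL/6 and genotype Ebf1-/-, grown from kit-positive progenitors of fetal liver of E16.5 embryos. All cells carried retroviral vectors for the doxycycline-dependent activator (rtTA-Advanced, tdTomato) and for inducible FLAG-tagged NICD1 (the active, intracellular part of Notch1), and a further vector restored EBF1 with a StrepFLAG tag and a GFP marker, either as EBF1wt or with the amino acid substitution E271A. Doxycycline (1 µg/ml) was present for 6 hours, so NICD1 was induced in both groups, and 1 human BJAB lymphoma cell per 10 mouse cells supplied chromatin for the scale between libraries. There was 1 library per group, and the other library was an input from cells with the EBF1wt vector, for which no value per region was used here. The number of embryos or cultures pooled was not given in the sources used here, and EBF1 came from a retrovirus, not from its own gene.

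EBF1 is a transcription factor needed for B cell specification, and it binds DNA as a dimer at a palindromic site. In early B cells it occupies promoters and also many sites between genes, where distal enhancers lie. A site between genes cannot be tied to a target gene by position alone, so loci are named here by the nearest protein-coding gene on each side, as neighbours and not as targets.

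DNA sequence could be read where a RefSeq promoter window of GRCm38.p6 (250 bases before to 50 after a gene's start) covered at least 90 bases of a locus. This held for 6 windows at 5 of the 266 loci, all windows of long noncoding RNA (lncRNA) genes. A pair of these windows, of Gm14321 and Gm32287, covers a single locus between Cebpb and Ptpn1 from opposite strands, and this locus holds the palindromic EBF1 motif, spelled TCCC, then 2 bases of any kind, then GGGA (both strands searched). Of the 6 windows, 2 held the exact motif, both at this locus. With 1 mismatch allowed 3 windows held a match, and the remaining windows held none. The sequences below show the locus between Cebpb and Ptpn1, a locus with a match that allows 1 mismatch, and a locus with neither in the stretch that could be read. Capitals mark the match, and each sequence is the stretch shared by the locus and the window, on the strand of the lncRNA gene.
Gm14321, chr2:167777241-167777540, plus strand: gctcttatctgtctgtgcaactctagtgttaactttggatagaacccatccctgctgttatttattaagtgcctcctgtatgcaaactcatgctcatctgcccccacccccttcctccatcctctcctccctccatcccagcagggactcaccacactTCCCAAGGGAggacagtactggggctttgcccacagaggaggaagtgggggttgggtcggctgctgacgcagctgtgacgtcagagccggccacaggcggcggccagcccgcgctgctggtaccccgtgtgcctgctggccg
Gm5122, chr9:61016819-61017015, plus strand: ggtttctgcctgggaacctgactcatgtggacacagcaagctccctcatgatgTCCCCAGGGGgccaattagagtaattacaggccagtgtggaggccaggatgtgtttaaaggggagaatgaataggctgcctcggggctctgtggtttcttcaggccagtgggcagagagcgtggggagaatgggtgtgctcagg
Gm29686, chr16:51987238-51987446, minus strand: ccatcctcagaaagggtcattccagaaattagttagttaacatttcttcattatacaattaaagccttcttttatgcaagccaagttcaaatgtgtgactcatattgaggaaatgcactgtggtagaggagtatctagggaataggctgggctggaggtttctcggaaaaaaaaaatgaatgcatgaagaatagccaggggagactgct

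At the Gm14321 locus EBF1wt had a scaled count of 111 and EBF1E271A 104, and EBF1E271A over EBF1wt was 0.943 (95% interval 0.709 to 1.27). The motif lies at chr2:167777399-167777408, and its centre is 22 bases from the centre of the region. The centre of the region lies 109.5 bases from the start of Gm14321. At the Gm5122 locus, 136 kb from Uaca and 355 kb from Tle3, the counts were 169 and 117, a ratio of 0.692 (0.542 to 0.886). The match lies at chr9:61016872-61016881. At the Gm29686 locus, 44.0 kb before the start of Cblb, which encodes a ubiquitin ligase that restrains receptor signalling in lymphocytes, the counts were 123 and 104, a ratio of 0.846 (0.643 to 1.12). The exact motif stood in 0.904% of all 32851 promoter windows and in 24.9% of the 185 windows that a deposited region of any kind covered over at least 90 bases. With 1 mismatch allowed the shares were 16.505% and 71.4%. Other motifs, which may overlap the EBF1 letters, were less unequal between these window sets: the RBPJ letters TGGGAA stood in 25.6% and 28.6%, the RUNX letters TGTGGT in 16.8% and 15.7%, and the E-box CANNTG in 72.3% and 63.8%. A match describes the letters of a window and does not show binding at them, and the letters of the other 261 loci were not analysed here.

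Because the values of both libraries chose the regions, their values and ratios are a description, without a test. The scaled counts of EBF1wt ranged from 101 to 318 with a median of 149 (quartiles 128 and 185), and those of EBF1E271A from 101 to 299.8 with a median of 139 (quartiles 121 and 169.98). Of the 518 regions, 409 were below 200 in both, 82 reached 200 in EBF1wt alone and 27 in EBF1E271A alone. The values rest on unscaled counts with a median of 94 per region for EBF1wt and 220.5 for EBF1E271A, so the EBF1wt library limits the precision of a ratio. No difference between the groups could be checked against replicates. The 95% intervals in parentheses after ratios (Clopper-Pearson, exact, from the unscaled counts) cover counting error only, and take the spike-in scale as exact.

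**Figure D1:**
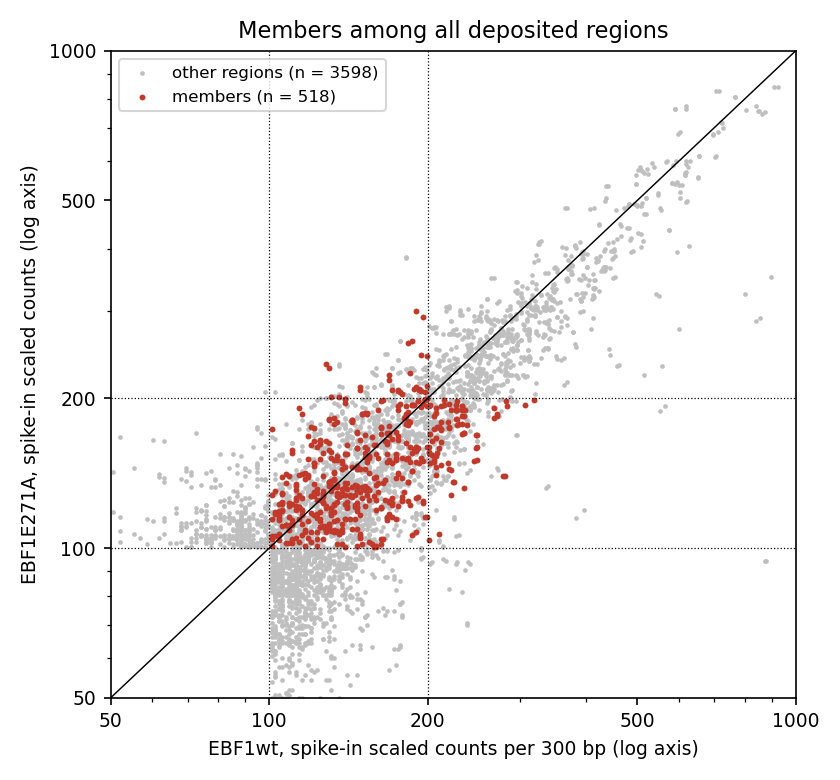
Scaled counts of EBF1wt (x axis) against EBF1E271A (y axis) for the 518 member regions (red) and the other 3598 deposited regions (grey), both axes logarithmic, with dotted lines at 100 and 200 and a solid line of equal values. The members fill the corner above 100 on both axes up to 318 for EBF1wt and 299.8 for EBF1E271A, while 87 regions beyond the axes (below 50 or above 1000) are not drawn.

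The median ratio over the 518 regions was 0.935, a log2 ratio of -0.10 (95% binomial interval of the median -0.14 to -0.06, which treats overlapping regions as independent), against -0.15 over all 4116 regions. The 1532 moderate shared regions inside or within 10 kb of protein-coding genes had the same median log2 ratio to 2 decimals, -0.10 (-0.11 to -0.08). The 250 regions over 10 kb from genes that reached 200 in both libraries had -0.11. By a fixed rule of size, on the log2 scale after a pseudocount of 1 scaled count, the EBF1E271A value was lower by 1.5-fold or more at 33 of the 518 regions (6.37%, 19 loci), as it was at 13.4% of all regions. At least 1.5-fold higher were 7 regions (1.35%, 4 loci), against 2.96% of all regions. On that scale 0 member regions were 2-fold lower and 0 were 2-fold higher, against 4.06% and 0.632% of all regions. Without the pseudocount 1 member region was 2-fold lower, that between Tmem132e and Cct6b. The limits of the rule hold both values in a narrow band, so nothing is read from these shares. The direction of the median depends on the scale: if the sums over all regions are set equal instead, every log2 ratio rises by 0.22 and the median becomes 0.12. A part of this rise rests on the region with the highest EBF1wt value (66811): without it in the sums the median is 0.056, still above 0. The counts with equal sums given here keep that region.

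Taking each locus once, by its region with the higher mean value, the ratio was below 1 at 162 of the 266 loci and at or above 1 at 104. With equal sums these counts were 101 and 165. The counting interval held 1 at 189 loci (71.1%), lay below 1 at 60 and above 1 at 17. With equal sums it held 1 at 191 loci, lay below 1 at 22 and above 1 at 53. At 87 loci the values of the libraries differed by at most 10% of the EBF1wt value. The log2 ratios of the regions had an SD of 0.32, where counting error alone gives 0.18. Of the loci, 252 held a pair of overlapping member regions, whose starts differed by a median of 14 bases (quartiles 6 and 26), and whose log2 ratios differed by a median of 0.02 and by at most 0.16. These pairs share most of their reads and do not replicate each other.

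**Figure D2:**
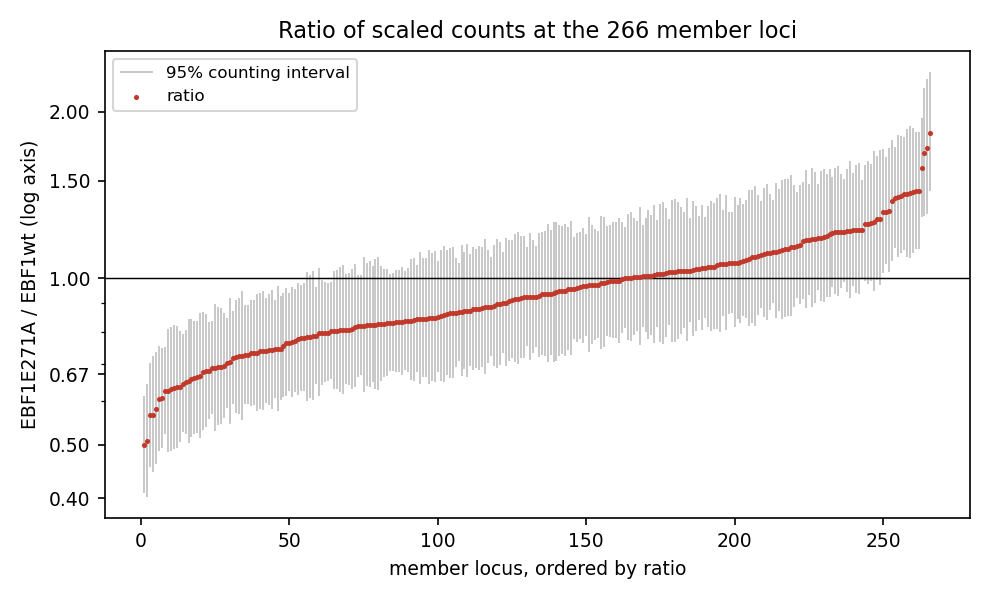
Ratio of EBF1E271A over EBF1wt scaled counts at each of the 266 member loci, ordered by ratio, on a logarithmic axis, with grey bars for the 95% counting interval. The points run from 0.499 to 1.83, and the bars of 189 loci cross 1.

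The lowest ratio was found 92.7 kb from Tmem132e, a transmembrane protein gene, and 173 kb from the chaperonin subunit gene Cct6b (chr11:82540184-82540483). EBF1wt had a scaled count of 279.9 there and EBF1E271A 139.8, a ratio of 0.499 (0.408 to 0.612). A locus 20.9 kb from Pdgfa, which encodes a platelet-derived growth factor chain, followed with 210.3 and 107, a ratio of 0.508 (0.403 to 0.643). It lies on chromosome 5 between 130 and 140 Mb, where 4 of the 266 loci lie, with ratios from 0.508 to 1.04. Between Fbrsl1 and the glycosyltransferase gene Galnt9 the counts were 234 and 132, a ratio of 0.565 (0.455 to 0.702). A locus 11.0 kb from Tmem189 and 16.4 kb before the start of Cebpb, which encodes a leucine zipper factor of myeloid cells, had 189.7 and 107.5, a ratio of 0.567 (0.446 to 0.722). In all 4 the EBF1wt value was the higher and the interval lay below 1. They were picked for low ratios, which the intervals do not take into account.

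Id3 encodes an inhibitor of E proteins, which act with EBF1 in B cell specification, and a locus 15.9 kb before its start (chromosome 4, 136127763 to 136128062) had 225 for EBF1wt and 136 for EBF1E271A (ratio 0.606, 0.488 to 0.754). Between Sorcs2, a sorting receptor gene, and the mitochondrial import gene Grpel1 the ratio was 0.581 (0.461 to 0.735), and between Rtl6 and Prr5, which encodes a part of the mTORC2 kinase complex, it was 0.606 (0.494 to 0.747). The locus with the highest mean value of all 266 was the eighth lowest by ratio: 95.1 kb before the start of Usp24, a deubiquitinase gene, and 988 kb from Plpp3 (chromosome 4, 106220727 to 106221026), the counts were 318 and 199, a ratio of 0.625 (0.522 to 0.75). The intervals of all these 8 loci lay below 1, but they make no allowance for the choice of the loci by ratio. With equal sums all 8 ratios were still below 1, and 4 of the 8 were still at least 1.5-fold lower.

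The highest ratio was found 10.8 kb beyond the end of Nkd1, which encodes a Wnt pathway antagonist, and 20.8 kb from Snx20 (chromosome 8, 88605581 to 88605880), with 128 for EBF1wt and 235 for EBF1E271A (ratio 1.83, 1.44 to 2.36). A locus 33.7 kb before the start of Neurl1b, a ubiquitin ligase gene of the Neuralized family that acts on Notch ligands, followed (chromosome 17, 26380966 to 26381265) with 101 and 174, a ratio of 1.72 (1.31 to 2.29). Inside the lncRNA gene 5330413P13Rik, 31.0 kb from Erv3, the counts were 114 and 192, a ratio of 1.68 (1.298 to 2.21). At 11.2 kb before the start of Bdkrb2, a bradykinin receptor gene, they were 189.7 and 299.8, the highest EBF1E271A value of all members, with a ratio of 1.58 (1.29 to 1.95). The next 4 loci had ratios from 1.42 to 1.44 and were flanked by Foxn2, Socs3, Gpr12 and Ywhaz. The intervals of these 8 loci lay above 1, and with equal sums all 8 ratios were above 1.5. These loci too were picked by ratio, for which the intervals make no allowance.

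The other loci of highest mean value showed both directions. Between Agfg2 and Nyap1 the counts were 267 and 192, a ratio of 0.717 (0.592 to 0.871), and at 11.9 kb from Txnrd3, a thioredoxin reductase gene, they were 270.4 and 186, a ratio of 0.688 (0.568 to 0.835). At 10.5 kb before the start of the translation initiation gene Eif2b2 they were 187 and 261, a ratio of 1.40 (1.14 to 1.73). Those near Runx2 (1.22, 0.997 to 1.51), which encodes a factor of bone formation, and Katnal1 (0.830, 0.680 to 1.02) had intervals that held 1.

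The distance to the nearest protein-coding gene ranged from 10.0 to 999 kb over the 266 loci, with a median of 40.5 kb (quartiles 19.5 and 86.6). The stretch between the flanking genes had a median length of 178 kb. The ratio did not follow distance in order: the median log2 ratio was -0.13 at 71 loci within 20 kb of a gene, -0.07 at 86 loci from 20 to 50 kb, -0.16 at 58 loci from 50 to 100 kb and -0.09 at 51 loci beyond 100 kb. Of the 202 loci whose nearest gene has a strand in the RefSeq promoter table, 116 lay before the start of that gene and 86 beyond its end, with median ratios of 0.926 and 0.940. A locus of 200 or more in both libraries lay within 50 kb of 29 loci, and their median ratio was 0.971 against 0.924 at the other 237. The same count was not made for loci outside the members. Another deposited locus of any level lay within 50 kb of 92 loci (34.6%), as it did for 34.6% of the other 1855 loci of the series. For the 308 of these over 10 kb from protein-coding genes the share was 30.5%. These comparisons are over loci, which are not replicates, and were not tested.

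**Figure D3:**
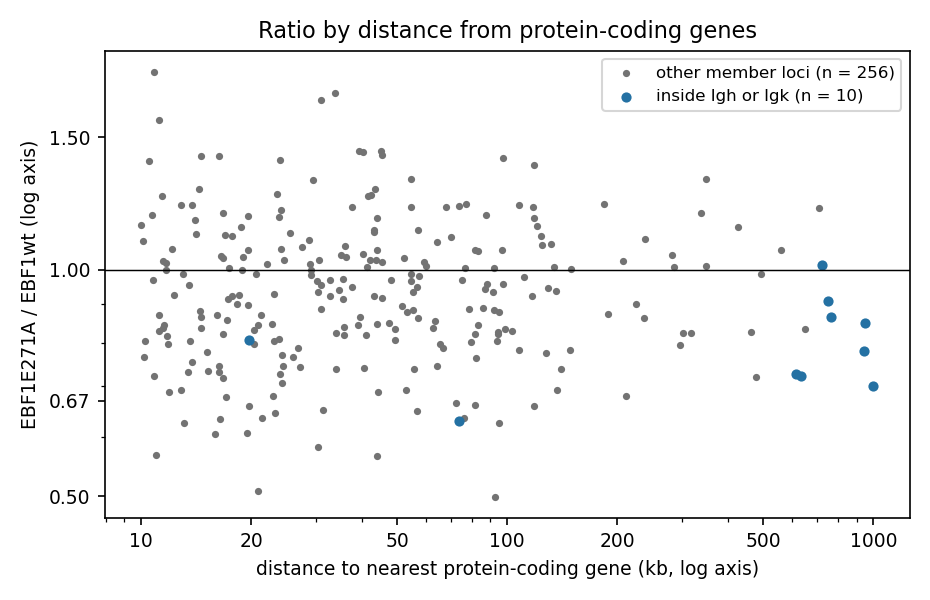
Ratio of EBF1E271A over EBF1wt (y axis, logarithmic) against the distance to the nearest protein-coding gene in kb (x axis, logarithmic) for 256 member loci (grey) and the 10 inside the Igh or Igk gene cluster (blue). Most loci lie within 100 kb, and the blue points make up 8 of the 51 loci beyond 100 kb, with 1 of the 10 above a ratio of 1 (3 with equal sums).

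The name "far from genes" did not hold at the immunoglobulin loci. Of the 266 loci, 10 lay inside the gene clusters of the heavy chain (Igh, 3 loci) and the kappa light chain (Igk, 7 loci), whose variable (V), joining and constant segments the gene table does not class as protein-coding. They include 6 of the 8 loci farthest from any protein-coding gene. Among the others was a locus 649 kb from the protocadherin gene Pcdh9, with 210.3 for EBF1wt and 175 for EBF1E271A (0.833, 0.675 to 1.03). This grouping was chosen after the values were seen. B cells assemble their antigen receptor genes from these segments, and EBF1 acts at the stage at which this starts. The scaled counts at the 10 loci ranged from 147 to 281 for EBF1wt (median 183) and from 101 to 197 for EBF1E271A (median 152). The ratio was below 1 at 9 of the 10, with a median of 0.794, against 0.937 at the other 256 loci and 0.987 at the 43 others beyond 100 kb, a difference that was not tested. All 3 Igh loci and 6 of the 7 Igk loci had the lower value in the EBF1E271A library. With equal sums the ratio was below 1 at 7 of the 10 (3 in Igh and 4 in Igk), with a median of 0.926, against 1.09 at the other 256. The interval lay below 1 at 5 of the 10 on the spike-in scale, and at 2 with equal sums.

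In the Igh cluster (chromosome 12, 113256204 to 116009954) the 3 loci lay 2.16 to 5.91 kb from the nearest V segment and were the only deposited loci of the cluster. The strongest, 2.16 kb from the V pseudogene Ighv10-4 (114544947 to 114545246), had 281 for EBF1wt and 197 for EBF1E271A (ratio 0.701, 0.581 to 0.848). The locus 2.274 kb from Ighv10-2 had 179 and 152 (0.850, 0.677 to 1.07), and that 5.91 kb from Ighv14-4 had 171 and 123 (0.722, 0.568 to 0.922). The intervals of 2 of the 3 lay below 1.

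In the Igk cluster (chromosome 6, 67555636 to 70726754) the loci sat on or beside V segments themselves. Of its 14 deposited loci, 9 overlapped a V segment and 11 had their centre within 0.2 kb of one, although positions within 0.2 kb of a V segment make up 4.72% of the cluster. Among the 7 member loci, 6 overlapped a V segment. Families 1 and 2 account for 5 of these 6 overlaps, for 7 of the 9 over all deposited loci of the cluster, and for 23 of the 162 V segments (14.2%). The 0.2 kb window and these families were chosen after the loci were seen, and a preference for them was not tested. At Igkv1-135 the counts were 159.7 for EBF1wt and 101 for EBF1E271A (ratio 0.630, 0.488 to 0.816). At Igkv2-116 they were 234 and 170.1, a ratio of 0.727 (0.593 to 0.895), and at Igkv15-101 194 and 152, a ratio of 0.781 (0.626 to 0.978). Igkv2-137 (185 and 149, 0.807), Igkv2-109 (185 and 160.02, 0.865) and Igkv1-35 (147 and 133, 0.908) had intervals that held 1. The seventh locus, 3.03 kb from Igkv8-34, had 182 and 185, a ratio of 1.02 (0.816 to 1.27). The remaining 7 loci of the cluster, outside the value limits, had ratios below 1, from 0.556 to 0.996 (4 of the 7 below 1 with equal sums), and the strongest of them, 18.4 kb from Igkv13-87, had 620 and 570 (0.919, 0.816 to 1.04). V segments of a family are alike in sequence, and the counting of reads with several matches was not given in the sources used here, so values at single V segments are uncertain.

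**Figure D4:**
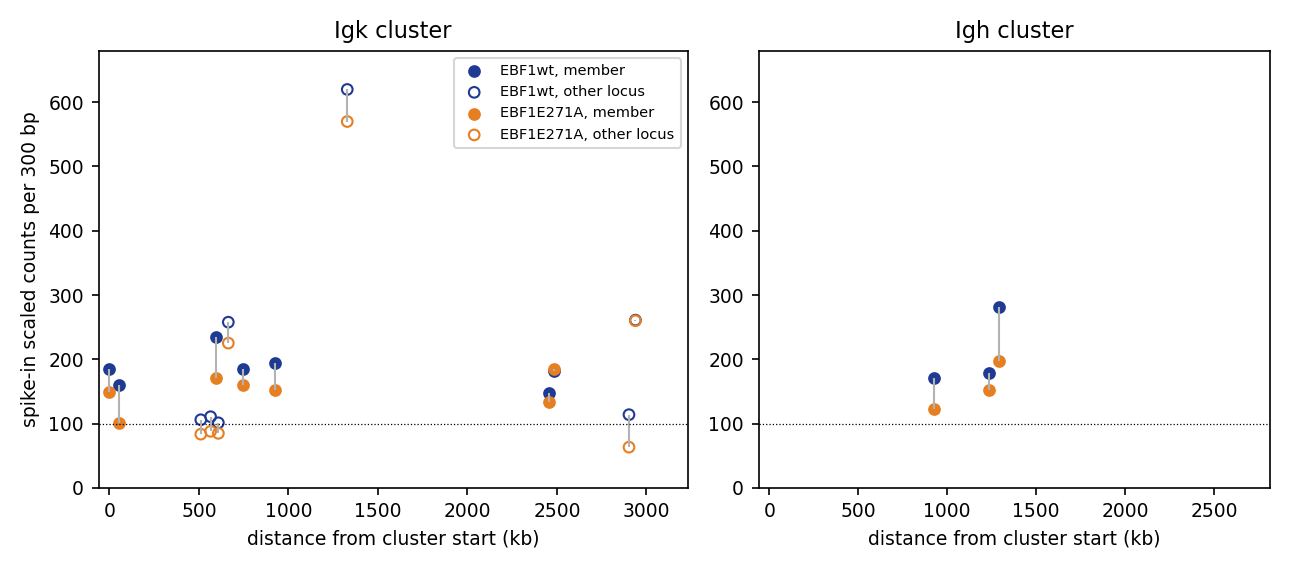
Scaled counts per 300 bp region for EBF1wt (blue) and EBF1E271A (orange) at every deposited locus of the Igk cluster (left) and the Igh cluster (right), by distance from the cluster start in kb. Filled points are member loci, open points other loci, grey lines join the libraries at a locus and the dotted line is the limit of 100. On this scale EBF1wt lies higher at 16 of the 17 loci, the exception being the locus near Igkv8-34 (182 and 185), and with equal sums at 11.

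Long noncoding RNA genes overlapped 57 of the 266 loci (21.4%), against 25.0% of the 308 other loci over 10 kb from protein-coding genes. The median ratio of the 57 loci was 0.959, and that of the 199 loci with no noncoding gene 0.935. The following 3 lncRNAs were picked for their known roles after the values were seen. Morrbid, a lncRNA that controls the proapoptotic gene Bcl2l11 in myeloid cells, held a locus 211 kb from that gene, with 183 for EBF1wt and 125 for EBF1E271A (0.679, 0.537 to 0.862). Trp53cor1, also known as lincRNA-p21, held one 27.1 kb before the start of the cell cycle inhibitor gene Cdkn1a, with 134 and 133 (0.988, 0.765 to 1.29). Zmiz1os1 held one 132 kb before the start of the coregulator gene Zmiz1, with 112 and 121 (1.08, 0.820 to 1.44).

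Member loci shared the stretch between 2 neighbouring genes in 26 cases, and 9 of the 226 stretches held 3 or more. Apart from the Igk and Igh clusters, the stretch between Jade2, a chromatin reader gene, and Cdkn2aipnl held the most, with 4 loci within 37.4 kb (chromosome 11, 51906414 to 51943815). Their ratios were 0.849, 0.651, 0.746 and 0.727, and all 4 were below 1 with equal sums too. The last 2 lie close together (51943089 to 51943388 and 51943516 to 51943815) and may not be separate sites. Between Tha1 and Socs3, which encodes an inhibitor of cytokine receptor signalling, 3 loci had ratios of 1.02, 1.44 and 1.14, of which the second, 53.2 kb beyond the end of Socs3, had 139 for EBF1wt and 199.9 for EBF1E271A (1.13 to 1.84). Between Rps24 and Zmiz1, 3 loci had 1.14, 1.08 and 1.28, all with intervals that held 1. Between Rad51b and Zfp36l1, which encodes an RNA-binding protein that limits proliferation of developing B cells, the 3 ratios were 0.971, 1.14 and 0.923, and the intervals held 1. Between Tbc1d1 and Gm38457 they were 0.625, 0.938 and 1.11, so loci of a stretch could also differ. Over the 32 pairs of member loci at most 100 kb apart, the log2 ratios differed by a median of 0.23, against 0.30 over all pairs.

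**Figure D5:**
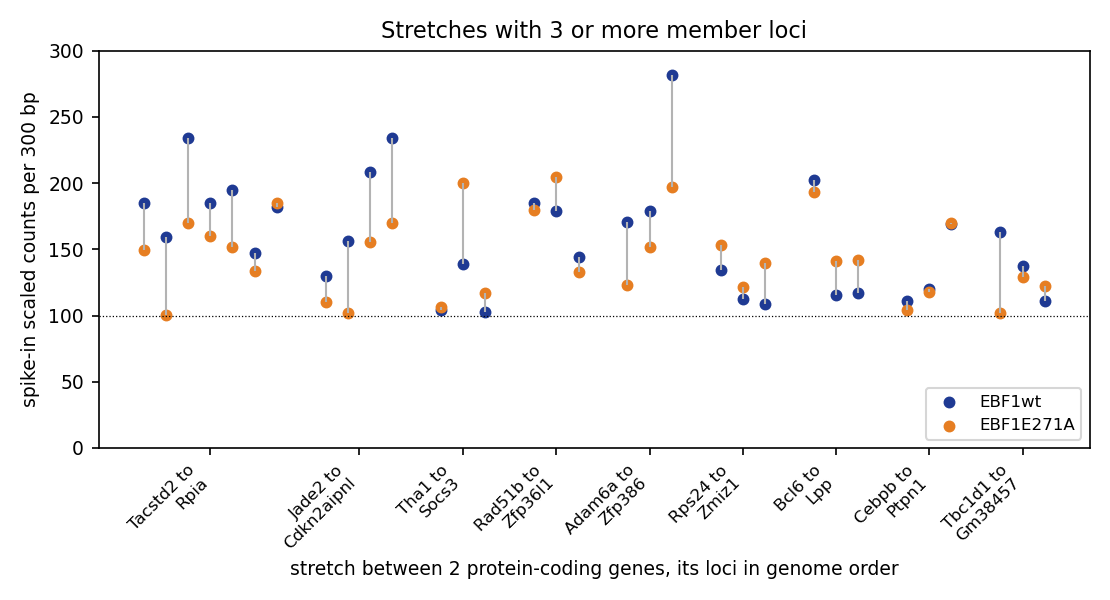
Scaled counts of EBF1wt (blue) and EBF1E271A (orange) at the loci of the 9 stretches between neighbouring protein-coding genes that hold 3 or more member loci, in genome order within each stretch. The 4 loci between Jade2 and Cdkn2aipnl, the last pair of them close together, all lie lower for EBF1E271A. The 3 between Tha1 and Socs3 and the 3 between Rps24 and Zmiz1 all lie higher.

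Genes of the lists compiled for B cell development, Notch signalling, other lineages, survival and cytokines flanked 34 of the 266 loci, 19 of them within 100 kb. How often listed genes flank deposited loci outside the members was not counted. These counts, and those by list below, are therefore not read as a feature of the members. The ratio was below 1 at 17 of the 34 and the median ratio was 1.00, against 162 of 266 and 0.927 for all member loci. The interval held 1 at 26 of the 34. With equal sums the ratio was below 1 at 8 of the 34, against 101 of 266. Flanking at any distance counts a locus for the gene next to it even across a long stretch. It also does so where the gene on the other side is nearer. A locus could count for several lists.

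Of the 42 B lineage genes, 5 flanked a locus each. Ralgps2, a guanine exchange factor gene strongly expressed in B cells, had a locus 56.8 kb before its start with 221 for EBF1wt and 144 for EBF1E271A (0.649, 0.523 to 0.807). A locus 31.7 kb beyond the end of Myb, which encodes a factor of blood progenitors, lay 12.8 kb from Ahi1 and had 176 and 121 (0.692, 0.545 to 0.882). Near Foxo1, which encodes a factor that acts with EBF1 in early B cells, the ratio at 93.9 kb was 0.805 (0.617 to 1.06), and near Irf8 at 43.3 kb it was 1.12 (0.845 to 1.51). The fifth, 246 kb from the surface protein gene Cd24a and 43.7 kb from Qrsl1, had 191 and 197 (1.03, 0.834 to 1.28). Of the 28 genes of pre-B cell receptor signalling, 3 flanked 4 loci. Nfatc1, which encodes a calcium-dependent factor of lymphocytes, had ratios of 0.896 and 1.17 at 51.6 and 44.2 kb, and Pik3r1, which encodes the regulatory subunit of PI3 kinase, 1.32 (1.02 to 1.72) at 577 kb.

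Notch pathway genes flanked 6 loci, 4 of the 28 genes being involved. The ratio was above 1 at 5 of the 6, also with equal sums. Of all 266 member loci, 104 had a ratio at or above 1 (165 with equal sums). The interval held 1 at 4 of the 6 (2 with equal sums), and 1 of the 6 lay within 100 kb of its listed gene. At 97.6 kb from the cyclin gene Ccnd1 the counts were 139 for EBF1wt and 196 for EBF1E271A (1.41, 1.11 to 1.81). At 108 kb from Rbpj, whose protein carries NICD1 to DNA, they were 153 and 187 (1.22, 0.967 to 1.55). Hes1, a repressor gene and target of Notch, was flanked by loci at 159.9 kb (141 and 154, ratio 1.097, 0.857 to 1.41) and at 338 kb on its other side (147 and 109, ratio 0.744, 0.575 to 0.968). The first of them lies nearer to Cpn2 (28.7 kb) and the second nearer to Opa1 (64.4 kb). NICD1 was induced in both groups, so these values do not compare cells with and without it. Of the 26 T lineage genes only Satb1, a chromatin organizer gene, flanked a locus, at 496 kb with a ratio of 1.02 (0.766 to 1.38). That locus lies nearer to Tbc1d5, at 59.3 kb.

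Among the 26 myeloid and innate lymphoid genes, Cebpb and Irf8 flanked 5 loci. Beside the low locus 16.4 kb before Cebpb (0.567), the 3 loci on the other side of the gene, at 86.9, 129 and 164 kb, had ratios of 0.943, 0.979 and 1.01, all with intervals that held 1. The first of these is the locus of Gm14321 shown above with its EBF1 motif. Of the 22 genes of stroma and adipocytes, markers of the OP9 feeder cells of the culture, only Runx2 flanked a locus, named above. Cell cycle and survival genes flanked 12 loci, 7 of the 23 genes being involved, with 5 ratios below 1 (1 with equal sums) and 11 intervals that held 1 (7 with equal sums). Bcl6, which encodes a repressor of germinal centre and pre-B cells, had 3 loci at 87.9, 220.2 and 349.7 kb, with ratios of 0.956, 1.22 and 1.21. Ccnd2 had 0.968 and 1.06, the kinase gene Pim1 0.879 and 1.06, and the proapoptotic gene Bmf 1.18. Bcl2l11 was the one gene of the list with an interval below 1, at the Morrbid locus. Of the 28 cytokine and chemokine genes and their receptors, Csf1 (0.739, 0.595 to 0.921), S1pr1 (0.998, 0.795 to 1.26) and Tnfsf11 (0.845, 0.645 to 1.11) flanked 1 locus each.

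By chromosome, the 266 loci made up 6.57% (chromosome 1) to 23.5% (chromosome 12) of the deposited loci of each chromosome that held any. The median ratio was below 1 on 18 of these 20 chromosomes, and on 2 with equal sums. The exceptions on the spike-in scale were chromosome 17, with 14 loci and a median of 1.05, where 4 ratios were below 1, and chromosome X, with 1 locus.

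The limits of the rule cut through runs of like values. Just inside the limit of 100, the lowest members had an EBF1E271A count of 101, at Igkv1-135 and near Prelid2, while the nearest regions outside it had 99.9. Just inside the limit of 200 were members with 199.2 in both libraries between Hcfc2 and Txnrd1, and just outside a region with 200.8 and 206. Just inside the distance limit was a region 10.0 kb from Slc38a2 (141 and 161), and its overlapping partner, at 9.93 kb, fell outside (134 and 154). In this way 12 of the 266 loci held 1 member and 1 region outside the limits.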

How the data were processed

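EBF1 ChIP-seq libraries of EBF1wt and EBF1E271A cells, 1 each, were compared. The deposited values are a signal, spike-in scaled counts per 300 bp region per the file headers, and per the series' design text human chromatin set the scale. Tools listed in the submitters' processing notes were deepTools 3.3.2, MACS2 2.2.7.1, Bowtie2 2.3.5.1, deepTools 3.5.0, SAMtools 1.10, bedtools 2.27.0, and GRCm38 was among the builds. The way regions were called was not given in the sources used here. Values were whole multiples of 1 step per library (1.5811 and 0.6325, tolerance 0.001 counts, 100% of values), which gave the unscaled counts, 515897 and 1105818 over all regions.

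Members were found by rule with pandas 2.3.3, and gene positions (21900 protein-coding genes) came from RefSeq, GRCm38.p6. 1 region lay on a sequence without genes in that table and was left out. Log2 ratios had a pseudocount of 1. With 1 library per group no p-value was computed. Ratios and intervals were checked on simulated counts. Loci were named by the highest mean, the lowest and highest ratios, the distance, the stretches with most loci and the listed genes. Members and lists were chosen with earlier results of these data known. Some listed genes are counted but not reported by name here. No genome sequence was used here beyond the promoter windows.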

Additional observations from a re-analysis of the deposited data

How the results depend on the processing

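The median log2 ratio of -0.10 was 0.12 with equal sums of both libraries and 0.056 with equal sums without the highest region, which is the scale itself. It stayed within its interval of -0.14 to -0.06 under the other 9 settings run for it. The number of member regions, 518, was 216 beyond 50 kb and 236 with genes of every type counted, which takes out regions inside or near noncoding genes. The 33 regions at least 1.5-fold lower became 7 with equal sums, 19 with each locus counted once and 0 at 2-fold (1 without the pseudocount of 1). The 7 at least 1.5-fold higher became 36, 4 and 0. The 34 loci flanked by listed genes became 19 within 100 kb. All 16 loci named for low or high ratios kept their direction with equal sums and with a pseudocount of 10. A pseudocount cannot carry a ratio across 1, and equal sums raised every ratio. Only the low loci with equal sums could therefore have changed direction. Chosen after the data were seen were the 2-fold count without a pseudocount, the equal-sums counts of loci, and the settings that leave out the highest region, the antigen receptor clusters or, on chromosome 5, 130 to 140 Mb. So were the window around V segments and the V segment families that were counted. The motif share over member regions was planned and not run, since only promoter windows gave sequence. No paired analysis was possible because each group has 1 library. The EBF1wt library, with a median of 94 unscaled counts per member region, limits the precision of single ratios.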
